A study of Ovis aries with 9 samples.

Results

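Potassium channel subunits are encoded by the genes whose symbols begin with KCN, and the 95 such genes of the RefSeq sheep annotation (ARS-UI_Ramb_v3.0) are described here across the hypothalamus of sheep passing through puberty. Members were chosen by symbol alone among 21284 protein-coding genes with NM or XM transcripts, and all 95 were in the deposited table, with 267 transcripts. Of these genes 43 had 1 transcript, and the largest number was 16, in KCNT1. RNA had been sequenced from the hypothalamic tissue of Dolang sheep, from 3 animals in each of 3 untreated groups, which were prepuberty at 120 days after birth, puberty at 130 and postpuberty at 150, and 1 library was made per animal. Libraries are named by stage and replicate number. Values are in FPKM, the fragments of a transcript scaled to its length and to the fragments mapped in the library, summed over the transcripts of a gene, so that levels of different genes can be set side by side.

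Potassium channels let potassium leave the cell, which returns the membrane towards rest after an action potential and sets how readily a neuron fires. The pore is built from several alpha subunits, which may be voltage-gated, inwardly rectifying, calcium-activated or of the leak type with a double pore domain, and beta subunits change its gating or its traffic to the membrane. In brain tissue, delayed rectifier and A-type channels act mainly in neurons, whereas the inward rectifiers of astrocytes and oligodendrocytes take up the potassium that neurons release. In hypothalamic neurons potassium channels shape the firing that drives hormone release.

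The library Puberty 2 stood apart from the rest. It had a summed FPKM of 377780 over protein-coding genes against 228754 to 260446 in the other 8 libraries, and 15577 genes above 0 against 17180 to 17763. KCN genes made up 0.0715% of that sum in Puberty 2 and 0.123% to 0.240% in the others, and 35 KCN genes reached an FPKM of 1 there against 46 to 57. Stage results are therefore given with and without Puberty 2. Markers of the labelled tissue were mixed. GNRH1, which encodes gonadotropin-releasing hormone, was listed at 0 in all 9 libraries, and 8 of 12 hypothalamus markers had a median below 1, among them the transcription factor SIM1, at no more than 0.111. AVP, which encodes vasopressin, lay between 0.551 and 10.4 FPKM, and OXT, which encodes oxytocin, between 0.319 and 4.81. The neuropeptide genes TRH, NPY and POMC had medians of 8.11, 5.10 and 4.37. In bulk tissue, fewer cells of a type and less RNA per cell cannot be told apart.

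A median of at least 1 FPKM over the 9 libraries was taken as expressed, and 50 of the 95 members (52.6%) reached it, against 11907 of all genes (55.9%). A median of 10 or more was seen for 6 members, from 5 to below 10 for 13, and from 1 to below 5 for 31. Of the 50, 30 were at 1 or above in all 9 libraries, and 37 in all 8 without Puberty 2. KCNF1 and KCNMB1, both at 1.24, were just above the line, whereas KCNE4 and KCNJ14, both at 0.999, fell just below it. Of the members below the line, 17 reached 1 in some library, and 28 reached it in none. KCNU1, the sperm channel, and KCNJ1, the kidney inward rectifier, were listed at 0 in all 9 libraries.

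**Figure D1:**
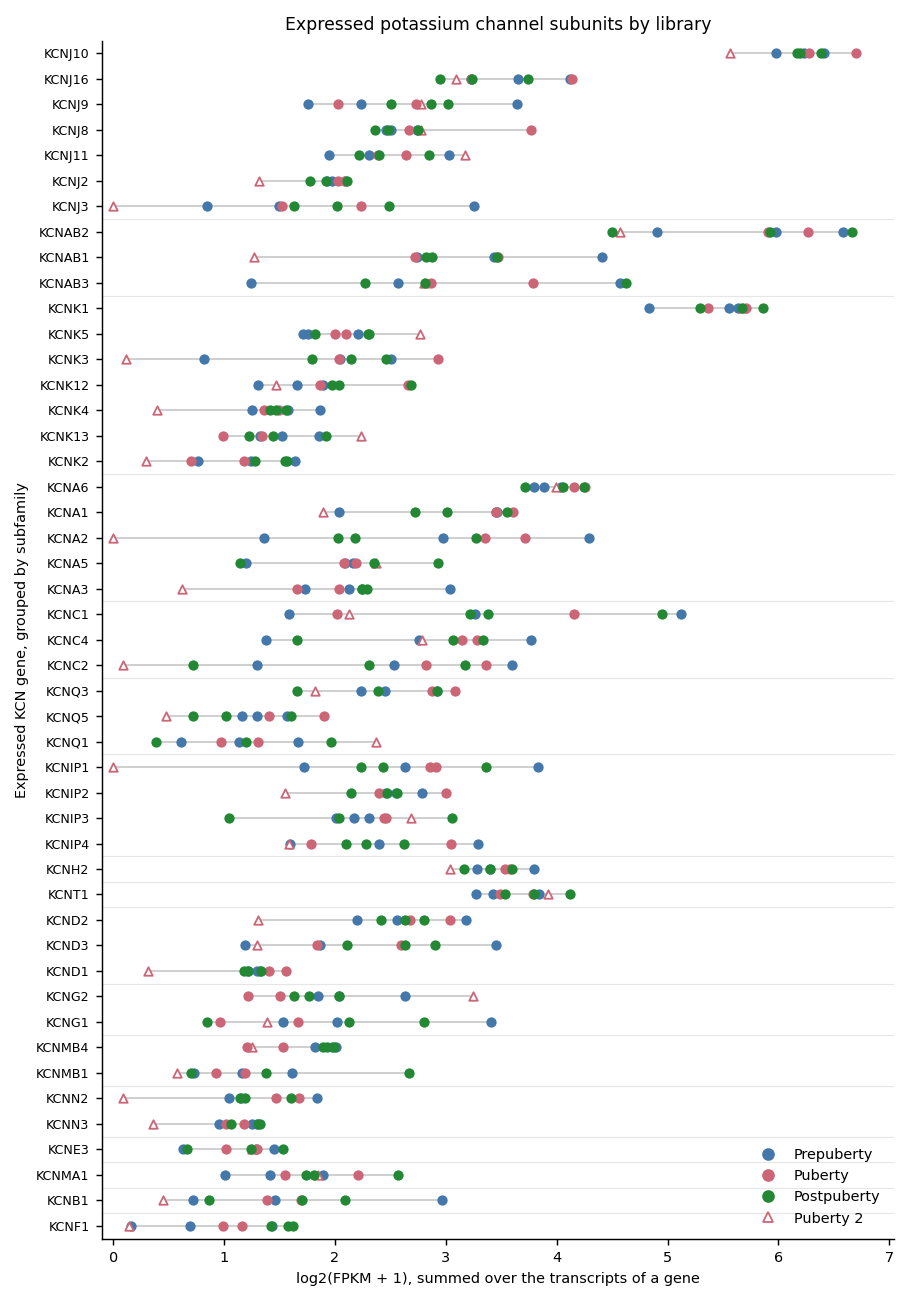
FPKM of 47 of the 50 expressed KCN genes on a log2(FPKM + 1) axis, 1 symbol per library, coloured by stage, with Puberty 2 as an open triangle and a grey line from the lowest to the highest library. KCNJ10, KCNAB2 and KCNK1 lie to the right of all others in the median, and Puberty 2 is the lowest library for 23 of the 47 genes.

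The inward rectifiers (KCNJ) were the subfamily with the highest summed FPKM, with a median of 117 over the 9 libraries. KCNAB, the cytoplasmic beta subunits of Kv1 channels, followed at 75.7, then the double-pore KCNK family at 62.4. The voltage-gated Kv1 genes (KCNA) reached 35.6, the Kv3 genes (KCNC) 28.4, the M-current genes (KCNQ) 24.0 and the Kv4 partners (KCNIP) 17.4. The lower subfamilies were KCNH at 13.3, KCNT at 13.2, KCND at 11.4, KCNG at 8.44, KCNMB at 3.76, KCNN at 3.68 and KCNE at 2.75. All members were expressed in KCNC (4 of 4), KCNQ (5 of 5), KCNIP (4 of 4), KCNAB (3 of 3) and KCND (3 of 3). Expression was partial in KCNJ (7 of 15), KCNK (7 of 15) and KCNA (5 of 8), and in KCNH it rested on KCNH2 alone of 8 members. None was expressed in KCNS (3 members) or KCNV (2 members), which are silent subunits that modify Kv2 channels.

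**Figure D2:**
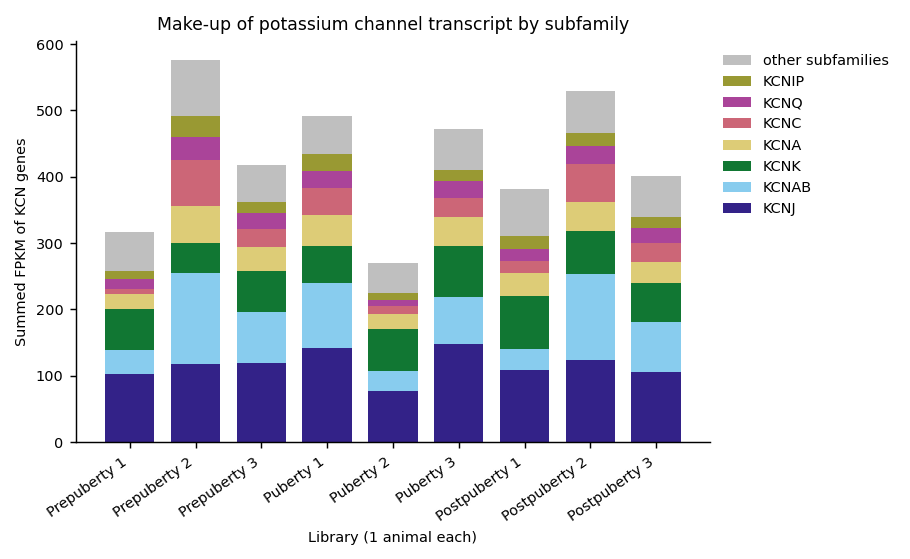
Summed FPKM of KCN genes in each library, stacked by subfamily, with the 7 largest subfamilies in colour and the remainder in grey. The total runs from 270 in Puberty 2 to 576 in Prepuberty 2, and without Puberty 2 the highest band is 1.44 and 1.75 times the lowest for KCNJ and KCNK, against 4.34 and 10.3 times for KCNAB and KCNC.

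The subfamilies differed in how far they varied between animals. Over the 8 libraries without Puberty 2, the highest library exceeded the lowest 1.44-fold for the KCNJ sum and 1.75-fold for the KCNK sum. The same ratio was 2.40 for KCNA, 2.27 for KCNQ, 4.34 for KCNAB and 10.3 for KCNC.

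KCNJ10, the inward rectifier of astrocytes and oligodendrocytes that clears potassium from the space around neurons, had the highest median of all members. This gene, on chr1:111068499-111104621, was at 74.1, 61.8 and 83.9 FPKM in Prepuberty 1 to 3, at 103, 46.1 and 76.4 in Puberty 1 to 3 and at 70.7, 82.4 and 72.3 in Postpuberty 1 to 3. Its lowest and highest libraries were both at puberty, and the 3 stages overlapped. The stage means were 73.3 ± 11.0, 75.2 ± 28.6 and 75.1 ± 6.33 FPKM (SD, n = 3 each).

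KCNAB2, on chr12:46566852-46662993, encodes a beta subunit that carries Kv1 channels to the axon. Its level was 28.9, 94.8 and 61.9 FPKM at prepuberty, 75.8, 22.8 and 59.0 at puberty and 21.6, 100.5 and 59.6 at postpuberty. Each stage held a library at or below 28.9 and another at or above 75.8. A single one of its 12 transcripts gave 89.6% of its mean level and 84.4% or more in 8 libraries, but 46.8% in Postpuberty 3.

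KCNK1, on chr25:5845832-5916443, encodes a weak inward rectifier with a double pore domain that is strongly expressed in astrocytes. It was at 48.6, 27.5 and 46.0 FPKM at prepuberty, 40.1, 50.2 and 51.3 at puberty and 57.1, 50.0 and 38.2 at postpuberty. The lowest library, Prepuberty 2, was the one in which neuronal members stood highest, as described below. Together KCNJ10, KCNAB2 and KCNK1 made up 32.0% to 47.8% of the KCN sum of a library.

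Among the other inward rectifiers, KCNJ16, which assembles with the KCNJ10 product, had a median of 8.42 FPKM and was highest in Puberty 1 (16.6) and Prepuberty 3 (16.4). KCNJ9 and KCNJ3, subunits of channels opened by G proteins, had medians of 5.65 and 2.10. KCNJ9 was highest in Prepuberty 2 (11.5), and so was KCNJ3 (8.55). KCNJ6, another subunit of that kind, was below the line for expression at 0.751. KCNJ11, the pore of the channel closed by ATP that senses glucose in hypothalamic neurons, had a median of 4.27. KCNJ8, its relative in pericytes and smooth muscle, was at 5.37, and KCNJ2, a classical strong inward rectifier, varied little outside Puberty 2, from 2.41 to 3.31.

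The Kv1 genes, which set the threshold of firing at axons, were led by KCNA6. Its median was 15.4 FPKM and its range was 12.1 to 18.1 over all 9 libraries, Puberty 2 included (14.9). KCNA1 had a median of 9.94 and ran from 2.72 to 11.2, with its low values in Puberty 2, Prepuberty 1 (3.09) and Postpuberty 1 (5.59). KCNA2 ran from 1.56 in Prepuberty 1 to 18.6 in Prepuberty 2 and was listed at 0 in Puberty 2. The neighbouring KCNA1 and KCNA6 lie 59.1 kb apart on chromosome 3, and their levels differed in this spread although both are Kv1 genes. KCNA5 and KCNA3 had medians of 3.47 and 3.37, and KCNA4, the A-type member, was below the line at 0.704.

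The Kv3 genes showed the widest spread of the larger subfamilies. KCNC1, on chr15:34495022-34538801, was at 1.99, 33.7 and 8.59 FPKM at prepuberty, 16.9, 3.36 and 3.06 at puberty and 8.29, 29.9 and 9.40 at postpuberty. Prepuberty 2 and Postpuberty 2 were above every other library, and the stages overlapped. KCNC4 ran from 1.60 to 12.6 and KCNC2 from 0.0620 to 11.1, and for both the highest library was again Prepuberty 2. KCNAB3, a Kv1 beta subunit outside the neuronal list, had the same pair of high libraries as KCNC1, with 22.8 in Prepuberty 2 and 23.6 in Postpuberty 2 and no more than 12.8 elsewhere.

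Kv4 genes give the A-type current of dendrites, and KCNIP genes encode the calcium-binding proteins that bring those channels to the membrane. KCND2 and KCND3 had medians of 5.18 and 3.31 FPKM, and KCND1 had 1.46. Their partners KCNIP1, KCNIP2, KCNIP3 and KCNIP4 had medians of 5.18, 4.54, 3.96 and 3.85. KCNIP3 differed from the other partners in order, since it was highest in Postpuberty 1 (7.32) and lowest in Postpuberty 2 (1.06). KCNMB1 lies inside the span of KCNIP1 (chr16:2425216-2848168), and since the strand setting is not given in the sources used here, reads of such overlapping genes may not be separable. Overlap with an annotated gene held for 17 expressed members, 3 of them with a protein-coding gene.

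Of the M-current genes, KCNQ3, whose product dampens repeated firing, had a median of 4.46 FPKM and ran from 2.16 in Postpuberty 1 to 7.45 in Puberty 1, with 2.54 in Puberty 2. KCNQ5 had a median of 1.46, and KCNQ1, better known in epithelia and heart, had 1.29 and was highest in Puberty 2 (4.17).

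Calcium- and sodium-activated channels were led by KCNT1, the sodium-activated channel gene, with a median of 12.8 and a range of 8.69 to 16.4 FPKM. KCNMA1, the pore of the large-conductance calcium-activated (BK) channel, was at 2.52, and its neuronal beta subunit KCNMB4 at 2.71. The small-conductance genes KCNN2 and KCNN3 were both at 1.27. KCNH2, the ERG channel gene, was one of the steadier members, from 7.21 in Puberty 2 to 12.9 in Prepuberty 2.

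Of the further double-pore genes, which carry the leak that sets resting potential, KCNK5 had a median of 3.29 FPKM, KCNK3 3.11, KCNK12 2.70, KCNK4 1.77, KCNK13 1.71 and KCNK2 1.36. KCNK13, the leak channel of microglia, was highest in Puberty 2 (3.70), with Postpuberty 3 (2.78) and Prepuberty 1 (2.62) next. The summed microglia markers were highest in Prepuberty 1 (362) and Postpuberty 3 (330), with 236 in Puberty 2, and their part in the KCNK13 level was not tested. The silent subunits KCNG2 and KCNG1 had medians of 2.59 and 2.18. KCNG1 was at 9.63 in Prepuberty 1 and at 0.794 in Postpuberty 1.

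Neuronal and glial members were compared through lists chosen from general knowledge. The neuronal list held 44 genes, of which 28 were expressed, and the glial list held KCNJ10, KCNJ16, KCNK1, KCNK13 and KCNE5, of which KCNE5 was not. The summed FPKM of the neuronal list was 105, 360 and 194 in Prepuberty 1 to 3, 241, 80.0 and 207 in Puberty 1 to 3 and 149, 284 and 196 in Postpuberty 1 to 3. The glial sum was 134, 103 and 148 at prepuberty, 161, 108 and 138 at puberty and 138, 146 and 120 at postpuberty. The neuronal sum was the larger in 7 of the 9 libraries, the exceptions being Prepuberty 1 and Puberty 2.

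The neuronal sum differed 3.42-fold between the highest and lowest of the 8 libraries without Puberty 2, and the glial sum 1.56-fold. The ratio of the sums, which does not depend on the scaling of a library, ran from 0.787 in Prepuberty 1 to 3.50 in Prepuberty 2 and was 0.744 in Puberty 2. Both extremes of the 8 libraries were prepubertal animals, so that this spread lay within a stage. By gene, the highest of the 8 libraries exceeded the lowest by a median of 4.66-fold over the 28 expressed neuronal members, 2.28-fold over the 4 expressed glial members and 1.94-fold over all expressed genes. Over the 10 neuron markers it was 3.92-fold and over the 8 astrocyte markers 2.20-fold. For all 50 expressed members the median was 3.65-fold, with quartiles of 2.35 and 7.55. KCNA6, KCNH2, KCNC4 and KCNAB3 were among the expressed members on neither list, so the medians by list depend on that choice. Over all 9 libraries KCNA6 ran from 12.1 to 18.1 FPKM and KCNH2 from 7.21 to 12.9. The other way, KCNC4 ran from 1.60 to 12.6 and KCNAB3 from 1.36 to 23.6.

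**Figure D3:**
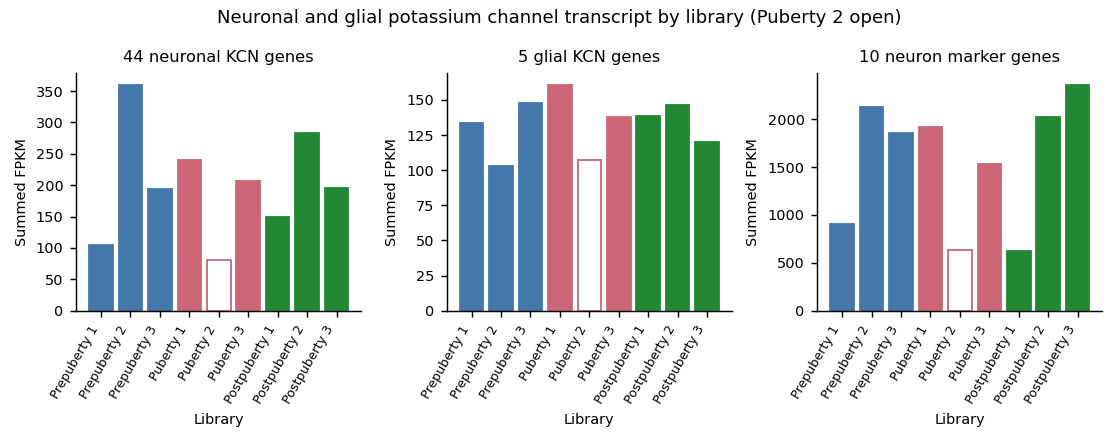
Summed FPKM of the 44 neuronal KCN genes, the 5 glial KCN genes and 10 neuron marker genes in each library, with bars coloured by stage and Puberty 2 open. The neuronal KCN sum is lowest in Puberty 2, Prepuberty 1 and Postpuberty 1, 1 library in each stage, which are also the 3 lowest libraries for the neuron markers.

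The same animals recurred across the neuronal members. Prepuberty 2 was the highest of the 8 libraries for 16 of the 28 (57.1%), against 2819 of all 11907 expressed genes (23.7%), and Prepuberty 1 was the lowest for 19 (67.9%), against 2122 (17.8%). The order was set beside that of cell markers. The 10 neuron markers summed to 903, 2128 and 1856 FPKM at prepuberty, 1915, 632 and 1528 at puberty and 621, 2024 and 2363 at postpuberty, so that Prepuberty 1, Puberty 2 and Postpuberty 1 were lowest for both sums. The orders were not identical, since Postpuberty 3 was the highest library for the markers and the fifth for the neuronal members. Per 100 FPKM of neuron markers, the neuronal members summed to 8.29 in Postpuberty 3 and to 24.0 in Postpuberty 1. Oligodendrocyte markers summed to 6337 in Prepuberty 2 and 14497 in Prepuberty 1. The part of cell make-up in these differences was not tested.

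Regional markers also differed between the animals. SLC17A6, the vesicular glutamate transporter of thalamic and hypothalamic neurons, was at 53.3 FPKM in Prepuberty 2 and 31.8 in Postpuberty 2 and at no more than 13.7 elsewhere. LHX9, a transcription factor of the developing thalamus and other regions, was at 3.07 and 1.85 in those 2 libraries and at no more than 0.418 elsewhere. They were also the 2 highest libraries for KCNC1 and KCNAB3. The sum of the 6 thalamus and striatum markers ran from 20.0 to 82.6, with Prepuberty 2 and Postpuberty 2 (69.9) highest and SLC17A6 the largest single part of the sum in both. SLC17A6 and LHX9 were picked after their values were seen, and the rest of the list did not all follow them. TCF7L2 was at 11.8 in Postpuberty 2 but at 3.16 in Prepuberty 2, DRD2 was highest in Postpuberty 1 (3.37) and PPP1R1B in Puberty 2 (44.3), while DRD1 had the same high pair (2.48 and 2.23). Their part in the KCNC1 and KCNAB3 levels was not tested.

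Some members outside the neuronal and glial lists were high in a single library. KCNJ13, the inward rectifier of the choroid plexus, was below the line for expression at a median of 0.910 FPKM, yet it was at 29.8 in Puberty 3 and between 0.144 and 4.67 in the others. The choroid plexus markers TTR (7594 FPKM), KL (9.17), CLIC6 (6.24) and AQP1 (13.3) were all highest in Puberty 3 too, and the sum of the 4 measured markers was 7623 there against 9.57 to 727 elsewhere. KCNE2, another channel gene of that epithelium, was listed at 0 in Puberty 3. The span of KCNJ13 lies inside that of GIGYF2, which was at 12.6 in Puberty 3 and 14.2 in Postpuberty 1. KCNMB1, the BK beta subunit of smooth muscle, was at 5.37 in Postpuberty 1 and at no more than 2.06 elsewhere, and ACTA2, smooth muscle actin, was at 233 there and at no more than 56.9 elsewhere. ACTA2 was picked after its values were seen, and of the 7 vessel markers 3 were highest in Postpuberty 1 among the 8 libraries without Puberty 2. RGS5, of pericytes, was at 42.1 there and 42.7 in Prepuberty 3, and FLT1, of endothelium, at 9.59 there and 16.5 in Prepuberty 3. KCNJ8 was at 12.7 in Puberty 3 and between 4.15 and 5.85 in the other 8, with its lowest value in Postpuberty 1. The part of these tissues in the levels was not tested.

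**Figure D4:**
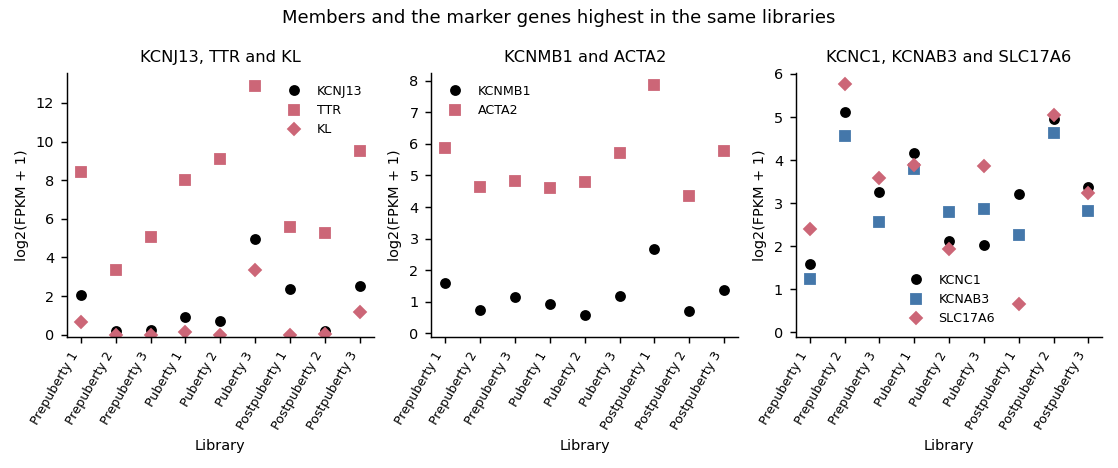
Level of KCNJ13 beside the choroid plexus markers TTR and KL, of KCNMB1 beside ACTA2, and of KCNC1 and KCNAB3 beside SLC17A6, as log2(FPKM + 1) in each of the 9 libraries. Puberty 3 is highest for the first set, Postpuberty 1 for the second, and Prepuberty 2 and Postpuberty 2 for the third.

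Puberty 2 was the lowest of the 9 libraries for 24 of the 50 expressed members (48.0%), against 54.2% of all expressed genes, and the highest for 5 (10.0%), against 21.1%. In it 28 expressed members (56.0%) were more than 2-fold below the median of the other 8, against 44.6% of all expressed genes, and 5 (10.0%) were more than 1.5-fold above it, against 19.7%. KCNA2, KCNIP1 and KCNJ3 were listed at 0 there, while none of the expressed members was listed at 0 in any other library. A value of 0 can be a failed estimate rather than missing transcript. Members that were not low in Puberty 2 included KCNK1, KCNA6, KCNT1 and KCNJ11, and KCNG2 was highest there at 8.50.

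The stages were compared to ask which members differ between prepuberty, puberty and postpuberty. Of the 95 members, 67 passed the filter of a mean of 0.5 FPKM over all libraries and 28 did not. Calls needed a log2 fold change of 1 or more in either direction and a Benjamini-Hochberg adjusted p below 0.05 over the 13696 genes tested by limma. Between prepuberty and puberty 0 of 67 were called (0.0% of all genes), between puberty and postpuberty 0 (0.0%) and between prepuberty and postpuberty 0 (0.0%). At an unadjusted p below 0.05 there were 1, 2 and 0 members, against 1.64%, 2.0% and 0.730% of all genes. The smallest adjusted p of a member was 0.839, 0.783 and 1 in the limma fits. Without Puberty 2 the called members were again 0 of 66 in each comparison, with 2, 1 and 1 (3.03%, 1.52% and 1.52%) at an unadjusted p below 0.05, against 1.55%, 1.97% and 1.79% of 13713 genes.

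The median difference moved with Puberty 2 for KCN genes and for all genes. With 9 libraries the median log2 difference of the 67 members was 0.11 for prepuberty minus puberty, and 43 were positive. It was -0.12 for puberty minus postpuberty, with 17 positive. Over all genes tested those medians were 0.15 and -0.20. Without Puberty 2 the medians of the members were -0.10 and 0.03, with 23 and 35 of 66 positive, and those of all genes were -0.02 and -0.03. Prepuberty minus postpuberty gave -0.0018 over the members and -0.05 over all genes. The 2 comparisons that include puberty share its libraries, so their opposite signs are not separate observations.

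As a share of the sum of squares of log2(FPKM + 1), the difference between stages took a median of 11.6% over the 50 expressed members and 19.1% over all expressed genes. Without Puberty 2 the medians were 17.2% and 13.6%. KCNMB4 had the highest share of the members in both, with 89.2% and 85.8%.

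KCNMB4 encodes the beta subunit that slows the gating of BK channels in neurons and lies on chr3:149342595-149419392. It was at 2.93, 3.03 and 2.52 FPKM at prepuberty, at 1.89, 1.37 and 1.30 at puberty and at 2.97, 2.80 and 2.71 at postpuberty. All 3 pubertal libraries lay below all 6 others, whether or not Puberty 2 was counted. The means were 2.83 ± 0.27, 1.52 ± 0.32 and 2.83 ± 0.13 (SD, n = 3 each). The log2 difference by limma was 0.61 (SE 0.22, adjusted p = 0.839) for prepuberty minus puberty and -0.61 (SE 0.22, adjusted p = 0.783) for puberty minus postpuberty. Neither passed the test over all genes, and the pubertal values are the same in both. Without Puberty 2 the differences were 0.57 and -0.57, with 95% intervals of 0.16 to 0.97 and -0.97 to -0.16 and adjusted p of 0.99994 and 1 by limma. Quantile normalization brought the differences to 0.36 and -0.31. KCNMA1, the pore to which it binds, gave a different order, with 1.01, 2.71 and 1.66 at prepuberty, 1.93, 2.60 and 3.62 at puberty and 4.91, 2.33 and 2.52 at postpuberty.

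The remaining members with the smallest p between prepuberty and puberty were KCNA3, KCNAB1, KCNG1 and KCNK2. Their log2 differences by limma were 0.86 (SE 0.44), 1.04 (SE 0.59), 0.98 (SE 0.59) and 0.49 (SE 0.31), each with an adjusted p of 0.839. With array quality weights those of KCNA3 and KCNK2 turned to -0.034 and -0.039. Without Puberty 2 those of KCNA3, KCNAB1 and KCNK2 were 0.45, 0.43 and 0.27, and that of KCNG1 was 1.0. Without Prepuberty 2 they were 0.49, 0.60 and 0.28 for KCNA3, KCNAB1 and KCNK2. KCNA3, a Kv1 gene, was at 3.37, 7.19 and 2.31 FPKM at prepuberty and 3.10, 0.537 and 2.15 at puberty, so that the stages overlapped. KCNG1, the silent subunit, was at 9.63, 3.04 and 1.89 at prepuberty and 2.18, 1.62 and 0.954 at puberty, and its difference was 0.43 without Prepuberty 1.

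Between puberty and postpuberty the smallest p after KCNMB4 belonged to KCNK2, KCNF1, KCNA3 and KCNJ8. KCNK2, a leak channel gated by stretch and lipids, was at 0.629, 0.224 and 1.27 FPKM at puberty and 1.92, 1.97 and 1.43 at postpuberty. All postpubertal libraries lay above all pubertal ones, and the log2 difference by limma was -0.74 (SE 0.31, adjusted p = 0.783), or -0.52 without Puberty 2. KCNF1, a silent subunit, was at 0.986, 0.105 and 1.24 against 1.98, 2.08 and 1.68, with -0.77 (SE 0.37, adjusted p = 0.783 by limma), or -0.46 without Puberty 2. KCNA3 gave -0.82 (SE 0.44), or -0.41 without Puberty 2, and its postpubertal values of 3.75, 3.88 and 3.74 were close together. KCNJ8 gave 0.54 (SE 0.33), or 0.19 without Puberty 3, where it was highest.

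Between prepuberty and postpuberty members among the 5 with the smallest p were KCNF1, KCNMA1, KCNK12 and KCNT1, all lower at prepuberty in the mean. Their log2 differences by limma were -0.78 (SE 0.37), -0.60 (SE 0.34), -0.61 (SE 0.37) and -0.30 (SE 0.27), each with an adjusted p of 1. Single libraries carried much of them. Without Postpuberty 1 those of KCNMA1, KCNK12 and KCNT1 were -0.34, -0.39 and -0.15, and without Prepuberty 1 those of KCNF1, KCNMA1 and KCNT1 were -0.48, -0.39 and -0.18. That of KCNT1 was -0.47 without Prepuberty 2. Pituitary markers also stood apart in Postpuberty 1. Of the 5, PRL (199.5 FPKM), GH (12.2) and CGA (2.92) were highest of the 9 libraries there, LHB was at 0.802 against a highest value of 10.9 in Puberty 2, and TSHB was listed at 0 in all 9. The sum of the 5 ran from 0.125 to 30.8 at prepuberty, 0.742 to 89.4 at puberty and 14.3 to 215 at postpuberty, and the part of such tissue in these differences was not tested. KCNK12, a double-pore gene, was at 1.48, 2.70 and 2.15 FPKM at prepuberty and 5.42, 2.91 and 3.10 at postpuberty, without overlap. KCNF1 overlapped through Prepuberty 2 (1.69).

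**Figure D5:**
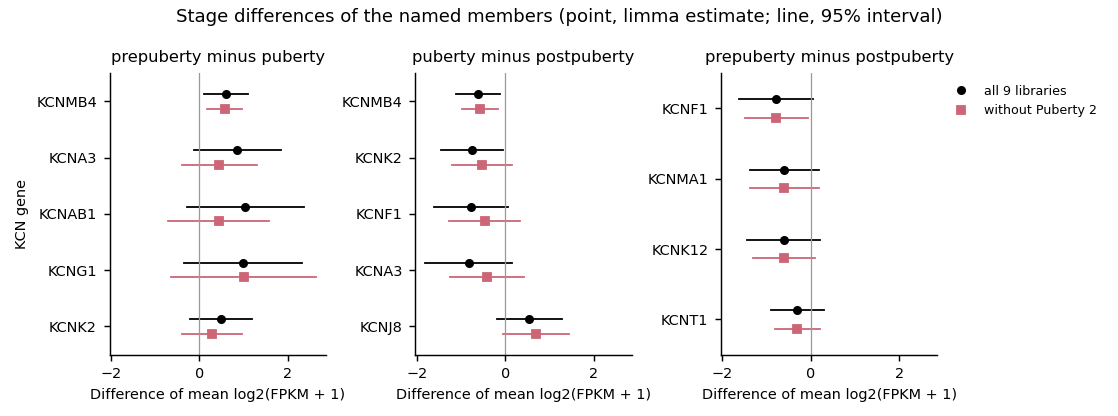
Difference of mean log2(FPKM + 1) between stages for members among the 5 expressed ones with the smallest p in each comparison (4 are drawn for prepuberty minus postpuberty), with 95% intervals from limma, for all 9 libraries (black circles) and without Puberty 2 (red squares). The intervals of KCNMB4 lie on one side of 0 in both comparisons with puberty, and those of the others include 0, apart from KCNK2 between puberty and postpuberty with 9 libraries and KCNF1 between prepuberty and postpuberty without Puberty 2.

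Complete separation of the libraries was counted as a description, since with 3 libraries a side the smallest two-sided p of an exact permutation test is 0.1. For prepuberty against puberty, KCNMB4 was higher in every prepubertal library and KCNIP3 lower, 1 of 67 members (1.49%) each way, against 2.76% and 2.18% of all genes. Without Puberty 2 there were 3 higher (KCNG2, KCNMB4 and KCNS3) and 3 lower (KCNA6, KCND1 and KCNIP3), 4.48% each, against 4.5% and 6.78%. For puberty against postpuberty, 0 members were higher in every pubertal library, against 1.86%. Those lower in every pubertal library were 6 (KCNA3, KCNF1, KCNJ5, KCNJ6, KCNK2 and KCNMB4), which is 8.96% against 5.29%. Without Puberty 2 there were 3 higher (KCNA2, KCND1 and KCNH8), 4.48% against 5.7%, and 7 lower, the same 6 with KCNG2, 10.4% against 8.0%. For prepuberty against postpuberty, KCNS3 was higher and KCNK12 lower in every prepubertal library, against 1.3% and 3.1% of all genes. Of the members named here, KCNJ5, KCNJ6, KCNS3 and KCNH8 were below the line for expression, with medians of 0.261, 0.751, 0.470 and 0.492 FPKM.

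Each list was also followed through the 3 comparisons. Limma called 0 genes of any list in any of them, and 0 of all 13696 genes tested. Of the neuronal list 34 members were tested, with 24 positive for prepuberty minus puberty and 5 for puberty minus postpuberty, and without Puberty 2 with 11 and 21 positive. Median log2 differences of this list were 0.26 and -0.26 with Puberty 2 and -0.14 and 0.07 without it. Of the glial list 4 were tested, with medians of 0.04 and -0.02, and of -0.11 and 0.08 without Puberty 2. The neuron markers had medians of 0.25 and -0.19, and of -0.27 and 0.34 without Puberty 2, so that their signs turned with that library in the same way. The part of neuron content in the KCN medians was not tested.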

How the data were processed

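Read trimming (Trimmomatic), alignment to ARS-UI_Ramb_v3.0 (HISAT2) and transcript estimation (StringTie) were done by the authors, per the paper's methods and the submitters' processing notes. The deposited values are FPKM per transcript, although the table is named as raw counts. They are not whole numbers, so no count test was run. FPKM does not carry the number of reads behind a value, and library read totals were not used here. RefSeq symbols matched 76682 of the 76684 NM and XM transcripts, and FPKM was summed per gene. Genes with a mean of 0.5 FPKM or more over all libraries were tested by limma (3.58.1, R 4.3.3) on log2(FPKM + 1) with an intensity trend and all 9 libraries in 1 fit, so fold changes of low genes are understated. Animals are separate, and the replicate numbers do not pair them. For each comparison the 5 expressed members with the smallest p were taken for naming, and other names describe levels. Members and lists were chosen from symbols and general knowledge, with earlier results of these data known. The fit was tested on simulated data. Their noise was independent between libraries, with a spread taken without Puberty 2, so a library that stands apart was not simulated. Alternatives covered scaling, pseudocount, filter, weights, block, transcript choice and each library left out. Tables were made with Python 3.11.15, pandas 2.3.3 and numpy 2.4.6, and figures with matplotlib 3.10.9. The symbol FOLR1 of the lists was not analysed here, and some members are counted but not reported by name.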

Additional observations from a re-analysis of the deposited data

How the results depend on the processing

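The number of members called by limma was 0 in all 3 comparisons under every alternative of scaling, pseudocount, filter, weights, variance model, transcript choice and left-out library. With the replicate block it was 0 as well. Among all genes tested 0 were called too, except with array quality weights, which called 3, 1 and 0 of 13696 genes. Replicate numbers carry no pairing in the labels, and same-numbered libraries had correlations of their deviations from -0.317 to 0.518. The count of 50 expressed members became 30 when every library had to reach 1 FPKM. Members with complete separation between prepuberty and puberty numbered 2, and 4 after upper quartile scaling, 1 with equal totals, 5 after quantile normalization and 5 with the highest transcript per gene (5.97%, 1.49%, 7.46% and 7.46%, against 5.42%, 5.82%, 5.73% and 5.89% of all genes). Between puberty and postpuberty they numbered 6, and 3 after quantile normalization (4.48% against 6.4%). Between prepuberty and postpuberty they numbered 2, and 3 after upper quartile scaling (4.48% against 3.79%). Leaving out a library, which by construction makes separation easier, gave 3 to 11, 9 to 14 and 3 to 14 of 67 members (4.48% to 16.4%, 13.4% to 20.9% and 4.48% to 20.9%), against 10.8% to 15.5%, 13.7% to 20.2% and 9.07% to 17.2% of all genes. With array quality weights, which gave Puberty 2 a weight of 0.063, the log2 differences of KCNA3 and KCNK2 between prepuberty and puberty reversed to -0.034 and -0.039, and the cause was not tested. These weights, highest for Prepuberty 3 (8.54), also gave 8, 1 and 8 members at an unadjusted p below 0.05 (11.9%, 1.49% and 11.9%, against 9.49%, 3.67% and 8.96% of all genes), in place of 1, 2 and 0. Equal totals moved the median difference of all genes to 0.29 between prepuberty and puberty and to -0.31 between puberty and postpuberty. Chosen after seeing the data, equal totals and upper quartile scaling gave a fold between the highest and lowest neuronal sum of 3.68 and 3.15, beside 3.42. The log2 differences of the other named members kept their direction, and 0 passed the threshold under any setting, but sizes moved. After quantile normalization the differences of KCNMB4 were 0.36 and -0.31, with unadjusted p of 0.195 and 0.265 by limma in place of 0.0231 and 0.0227. The smallest adjusted p of a member over all settings was 0.301, with array quality weights between prepuberty and puberty. What read depth limits was not assessed, since FPKM does not carry the reads behind a value.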

Other observations

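Proteins that work with potassium channels were described through lists chosen like the member lists. Of 14 channel partners 12 were expressed, and 8 of these 12 (66.7%) were highest of 8 libraries in Prepuberty 2, against 23.7% of all expressed genes. DPP6, which speeds Kv4 channels, ran from 9.19 to 33.9 FPKM, and AMIGO1, a partner of Kv2, from 2.82 to 17.7. ABCC8, the sulphonylurea receptor that forms the ATP-sensitive channel with the KCNJ11 product, was listed at 0 in Puberty 2, where KCNJ11 was at 8.04. The 4 HCN genes, which carry an inward cation current and so oppose potassium channels at rest, were all expressed. HCN2 was at 180 FPKM in Puberty 2 and between 28.6 and 76.6 in the other 8 libraries.

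Pumps and cotransporters set the gradient that the channels use, and all 9 measured genes were expressed. SLC12A5, the neuronal chloride and potassium cotransporter, was at 111 FPKM in Prepuberty 2 and 81.3 in Postpuberty 2 and at 11.6 in Prepuberty 1. ATP1B1 was listed at 0 in Prepuberty 1 and Puberty 2 and was between 117 and 379 in the other 7. Limma called 0 genes of these lists in the 3 comparisons, and 0 of all 13696 genes tested.

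The transcript behind a member differed between animals for KCNAB1. Of its 2 transcripts, XM_004003225.6 was at 19.5 FPKM in Prepuberty 2 and 9.98 in Puberty 1, where XM_004003226.6 was at 0.706 and 0.096. In Prepuberty 1 they were at 1.49 and 4.20, and in Postpuberty 1 at 0.983 and 5.33. Assignment of reads between transcripts of a gene is an estimate, and the part of that step was not tested.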
